A study of Mus musculus with 80 samples.

Results

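The 9 genes described here belong to prostaglandin and leukotriene synthesis and were followed through every way of isolating microglial RNA that the study compared. They were taken by gene symbol: Pla2g4a, Ptgs1, Ptgs2, Ptges, Hpgds, Tbxas1, Alox5, Alox5ap and Ltc4s. All 9 were listed among the 15919 genes of the sort table and among the 16000 genes of the cell-preparation table. All 9 passed the filter on low counts in each main fit, which gave the changes below unless another setting is named. The libraries came from brains of adult Cx3cr1-cre/Ert2;NuTRAP mice of both sexes (a hemisphere for each preparation, except Dounce, which took the whole brain), in which tamoxifen (100 mg/kg daily, given at about 3 months of age) turns on an eGFP-tagged ribosomal protein in cells that express Cx3cr1. These are chiefly microglia, the macrophages of the brain, with the other brain macrophages that use the same promoter. From each homogenate, part of the RNA was sequenced as it was (Input), and the RNA bound to tagged ribosomes was pulled down and sequenced separately (TRAP, translating ribosome affinity purification).

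In the sort experiment (48 libraries) the preparations were whole-tissue homogenate (Tissue, 4 mice), a suspension of cells made with warm enzymes and mechanical force and left unsorted (Cell, 4 mice), and cells sorted from such suspensions in 4 ways, together called Sort. The sorts were CD11b magnetic beads (autoMACS, 4 mice), cartridge-based FACS (Tyto, 5 mice), cytometer-based FACS (FACSAria, 4 mice) and beads followed by the cartridge sort (autoMACS to Tyto, 3 mice). In the cell-preparation experiment (32 libraries, 4 mice a group) the enzymatic suspension was made without inhibitors, Cell(-), or with actinomycin D, triptolide and anisomycin, which block transcription and translation, in the warm step alone, Cell(+). Dounce was a purely mechanical suspension made in the cold and cleared on Percoll, and Tissue was again whole homogenate. The labels give every mouse the same genotype, and all received tamoxifen. Tissue and Cell of the sort experiment came from the same 4 mice (numbers 946 to 949), Cell(-) and Cell(+) from the same 4 mice (156, 157, 1361 and 1362), and the Tissue libraries of both tables carry the same mouse numbers, so those Tissue groups are not independent of each other. Comparisons with a common group below share its libraries.

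Levels are given as CPM, read counts per library scaled to a common size. Total counts ran from 7129464 to 20168116 per library in the sort table and from 2471448 to 14650287 in the cell-preparation table, with the Dounce-TRAP libraries lowest (2471448 to 4724538). Changes are log2 fold changes ± SE from edgeR's quasi-likelihood test, with p-values adjusted over all genes of the fit (FDR). A gene was called changed at an FDR under 0.1 with a fold above 2. The summed level of 5 microglial markers (Tmem119, P2ry12, Siglech, Cx3cr1 and Csf1r) was 112 to 181 CPM in Tissue-Input, 2742 to 3274 CPM in Tissue-TRAP, 20043 to 21496 CPM in Cell-TRAP and 22276 to 28997 CPM in the sorted TRAP libraries. In these bulk samples, more cells of a type and more RNA of a gene per cell cannot be told apart.

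The 9 genes encode proteins of a branched pathway. Cytosolic phospholipase A2 (Pla2g4a) frees arachidonic acid from membranes, and the cyclooxygenases (Ptgs1, mostly constitutive, and Ptgs2, an immediate early gene) turn it into prostaglandin H2. Terminal enzymes then make prostaglandin E2 (Ptges), prostaglandin D2 (Hpgds) or thromboxane A2 (Tbxas1). On the other branch, 5-lipoxygenase (Alox5), presented with its substrate by the membrane protein Alox5ap (FLAP), makes leukotriene A4, which Ltc4s joins to glutathione to give leukotriene C4. In brain, microglia are known for Ptgs1, Hpgds and Tbxas1, while Ptgs2 is induced in many cell types by activity or injury.

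The start regions of the cyclooxygenase genes are shown because Ptgs2 behaved apart from the other members in the comparisons below. That of Hpgds is shown beside them. RefSeq (GRCm38.p6) gave a window of 250 bases before and 50 after a start for 8 of the 9 members, all but Alox5ap. For Ptgs2 this RefSeq start lies 93 bases before the start that GENCODE gives the gene, and positions below count from the RefSeq start. Both strands were searched for 6 motifs: a TATA box (TATAAA), the core of the cAMP response element or CRE (TGACGT), AP-1 (TGACTCA), an E-box (CACGTG), PU.1 (GAGGAAGT) and the NF-kB site. Capitals mark a match, and each line reads 5′ to 3′ on the gene's strand.
Ptgs1, 100 bases before the start, plus strand, chr2:36230326-36230425: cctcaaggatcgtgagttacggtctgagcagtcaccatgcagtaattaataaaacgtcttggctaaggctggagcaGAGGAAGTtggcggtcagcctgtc
Hpgds, 100 bases before the start, minus strand, chr6:65144731-65144830: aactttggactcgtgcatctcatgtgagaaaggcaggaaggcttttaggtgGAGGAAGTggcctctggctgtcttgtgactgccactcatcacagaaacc
Ptgs2, 100 bases before the RefSeq start, plus strand, chr1:150099931-150100030: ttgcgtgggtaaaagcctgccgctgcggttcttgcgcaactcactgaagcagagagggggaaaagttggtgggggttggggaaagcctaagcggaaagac
Ptgs2, first 30 bases after the RefSeq start, plus strand, chr1:150100031-150100060: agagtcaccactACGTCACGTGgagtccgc

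Ptgs1 and Hpgds each held 1 PU.1 match close before the start. It lay 24 to 17 bases before the start in Ptgs1 and 49 to 42 in Hpgds. No other member with a window held it. Tbxas1 and Ltc4s were among those without it, and like Ptgs1 and Hpgds they were high in the TRAP libraries of every suspension. Among all 32851 windows of this length, 3.2% held that motif. Ptgs2 held no match before the RefSeq start. It held a CRE core on the minus strand at bases 13 to 18 after that start and an E-box at bases 17 to 22, which overlap. Counted from the GENCODE start, the CRE core lies 81 to 76 bases and the E-box 77 to 72 bases before the gene. A CRE core was found in 7.51% and an E-box in 7.15% of all windows. TATA boxes (13.6% of windows) were found before Tbxas1, 11 to 6 bases from the start on the plus strand and 13 to 8 on the minus strand, and in the second window of Pla2g4a, 200 to 195 bases before. AP-1 (5.2% of windows) and NF-kB (0.155%) matched none of the 8 members searched, and Ptges, Alox5 and Ltc4s matched no motif. Other spellings of these sites were not searched. For Ptgs2 the window ended 50 bases after the RefSeq start, so the bases from there to the GENCODE start were not searched. These matches are descriptions of letters only.

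**Figure D1:**
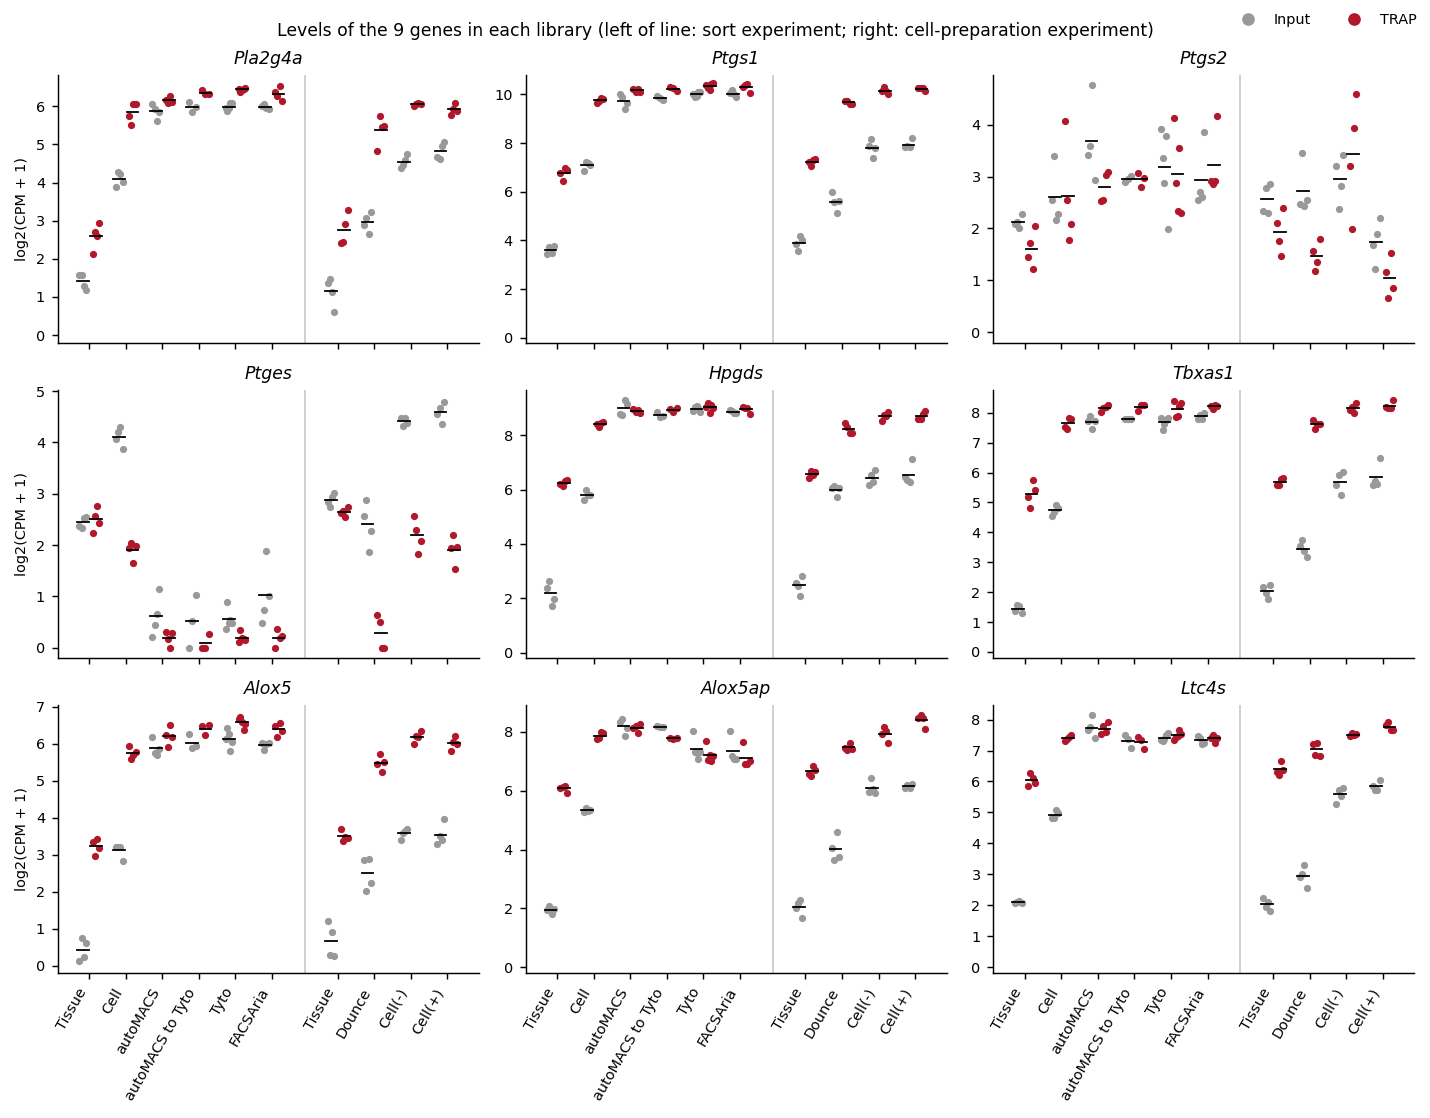
Levels of the 9 genes as log2(CPM + 1) on the y axis in each library, by preparation on the x axis, with Input in grey and TRAP in red and a bar at each group's mean. Except for Ptges and Ptgs2, the genes climb from Tissue to the suspensions in both fractions, Ptges instead drops out of the sorted and Dounce TRAP libraries, and Ptgs2 scatters between mice and is low in Cell(+).

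Freed from tissue into a suspension, ribosome-bound RNA of 8 of the 9 genes rose, and only Ptges did not. Cell-TRAP was called higher than Tissue-TRAP for 8 members, with no member called lower, where 25.1% of all genes tested were called higher. The median change of the 9 was 2.19 on the log2 scale, beside -0.01 over all genes tested and 2.72 for the 5 microglial markers, which rose as well. The 6 markers of border-associated macrophages were all called higher too, with a median of 2.62, and their part in the result was not tested. Tissue-TRAP also held neuronal RNA: its 6 neuron markers summed to 4653 to 5479 CPM, against 106 to 303 CPM in Cell-TRAP. The part of this difference in the members' rise was not tested. Scaling by DESeq2 size factors moved the median of all genes in this comparison by -0.33, and the share of higher among the called genes from 46.2% to 35%.

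Pla2g4a (chr1:149829622-149961284 in GENCODE on mm10, minus strand), the phospholipase that starts the pathway, rose the furthest of the 9. It stood at 3.35, 5.49, 5.05 and 6.74 CPM in Tissue-TRAP of mice 946 to 949 and at 52.6, 44.2, 65.5 and 65.8 CPM in Cell-TRAP of the same mice. The groups lay far apart, and the change was 3.47 ± 0.15 (FDR = 6.8e-17). Ptgs1 (chr2:36230426-36252269, plus strand) measured 109, 85.9, 126 and 118 CPM in Tissue-TRAP. In Cell-TRAP it measured 805, 850, 923 and 900 CPM. Every Cell-TRAP value lay above every Tissue-TRAP value, a change of 3.00 ± 0.10 (FDR = 8.3e-19).

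The terminal synthases of prostaglandin D2 and thromboxane rose alike. Hpgds (chr6:65117293-65144730, minus strand) went from 68.9 to 81.4 CPM in Tissue-TRAP to 318 to 356 CPM in Cell-TRAP, a change of 2.19 ± 0.08. Tbxas1 (chr6:38918986-39084579, plus strand) went from 27.3 to 52.8 CPM to 176 to 224 CPM, a change of 2.37 ± 0.15. Neither gene's ranges overlapped.

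The leukotriene genes rose less evenly. Alox5 (chr6:116410071-116461178, minus strand) changed by 2.66 ± 0.13, from 6.89 to 9.80 CPM to 47.2 to 61.1 CPM. Its partner Alox5ap (chr5:149265058-149288047, plus strand) changed by 1.82 ± 0.15, from 59.9 to 70.05 CPM to 218 to 252 CPM. Ltc4s (chr11:50236472-50238471, minus strand) had the smallest called change, 1.37 ± 0.11, from 57.3 to 77.2 CPM to 159 to 179 CPM. Both Alox5ap and Ltc4s, which encode membrane proteins of the same branch, thus stood nearer to their Tissue-TRAP level than Alox5 did. By limma on the authors' log2 values, the change of Ltc4s was 0.94 and fell short of the fold threshold.

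Ptgs2 (chr1:150100124-150108012, plus strand) rested on a single mouse here. Its Tissue-TRAP levels were 1.74, 2.30, 1.34 and 3.14 CPM in mice 946 to 949, and its Cell-TRAP levels were 15.9, 4.85, 2.43 and 3.25 CPM. Mouse 946 stood well above the others, and the ranges overlapped. The change was 1.63 ± 0.53 (FDR = 0.0071), higher in 4 of 4 mice, but without mouse 946 it was 0.54 and not called (FDR = 0.34), and by limma on the authors' log2 values it was 0.87 (FDR = 0.12). Ptges (chr2:30889471-30903297, minus strand) measured 3.73, 4.92, 5.78 and 4.41 CPM in Tissue-TRAP and 2.87, 3.12, 2.13 and 2.94 CPM in Cell-TRAP. It was lower in 4 of 4 mice, by -0.76 ± 0.39, which passed the FDR (0.075) and not the fold. With DESeq2 size factors the Ptges change was -1.09, and by limma on the authors' log2 values -1.18, both called lower, as it was by the DESeq2 test (-1.09).

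Sorting then changed 1 member. In Sort-TRAP against Cell-TRAP, Ptges alone was called, lower, where 23.6% of all genes tested were called lower. Ptges had 0 to 4 counts per library in the 16 sorted TRAP libraries and 31 counts in all of them together. Its level there was 0 to 0.279 CPM, below every Cell-TRAP library (2.13 to 3.12 CPM), and the change was -4.54 ± 0.36 (FDR = 6.1e-11). At this depth a level of 3 counts per library is about the limit of what could be seen. Markers of other cell types were lower too in Sort-TRAP, with median changes of -7.02 for astrocytes, -6.25 for endothelium and -3.68 for mural cells and fibroblasts. Whether Ptges RNA came with those cells was not tested.

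The other members kept close to their Cell-TRAP level after sorting. For 5 of them the change passed the FDR and not the fold: Pla2g4a (0.44 ± 0.10), Ptgs1 (0.47 ± 0.07), Tbxas1 (0.50 ± 0.11), Hpgds (0.52 ± 0.06) and Alox5 (0.63 ± 0.10), each at an FDR of 5.2e-04 or less. The 5 microglial markers had a median change of 0.38 in the same comparison. Ltc4s differed by 0.04 ± 0.08 (FDR = 0.70) and Ptgs2 by 0.16 ± 0.39 (FDR = 0.76). Without mouse 946, whose Cell-TRAP library was the high one, the Ptgs2 change was 1.15 and called (FDR = 0.019). Alox5ap had a change of -0.32 ± 0.11 (FDR = 0.018), again within the fold.

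Against Tissue-TRAP, Sort-TRAP was called higher for 8 members and lower for Ptges. Among all genes tested, 25.9% were called higher and 36.9% lower. The changes of the 8 ran from 1.41 ± 0.09 for Ltc4s to 3.92 ± 0.13 for Pla2g4a. Ptgs2 was among them, at 3.94 to 16.9 CPM with a median of 6.55 in the sorted TRAP libraries, all above the 4 Tissue-TRAP libraries, and its change was 1.79 ± 0.46 (FDR = 8.0e-04). Unlike the Cell-TRAP comparison, this call was kept without mouse 946 (1.69). By limma on the authors' log2 values the change of Ltc4s was 0.96 and fell short of the fold.

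**Figure D2:**
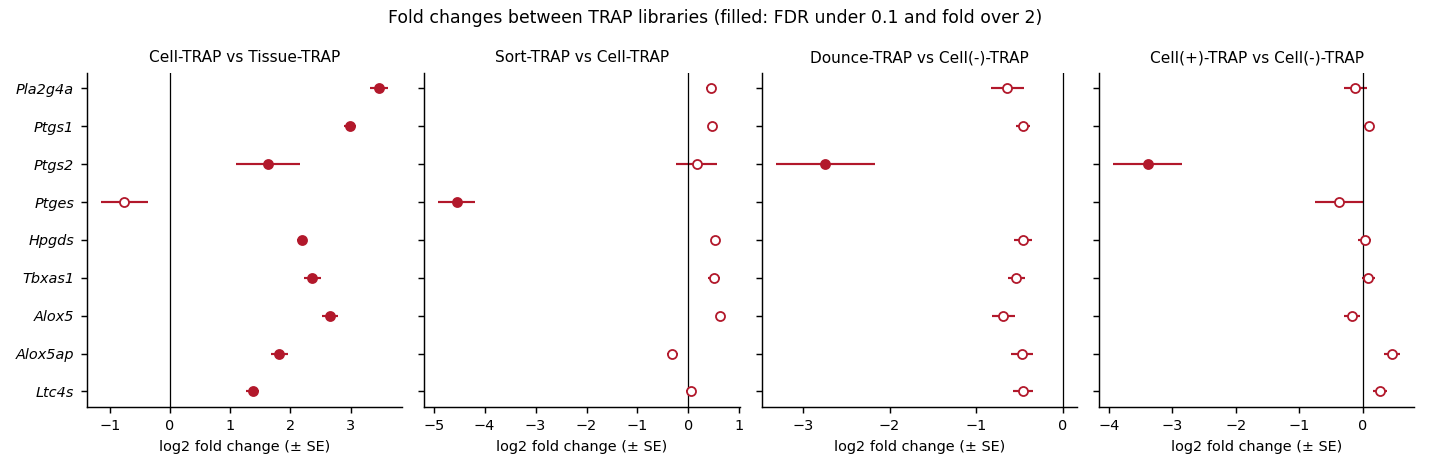
Log2 fold changes of the 9 genes on the x axis, with bars of 1 SE, in 4 comparisons between TRAP libraries. Points are filled where the gene was called, and Ptges is not drawn for Dounce-TRAP, where it had 0 to 2.5 expected counts per library. All genes but Ptges are filled in the first panel, Ptges alone in the second, and Ptgs2 is far to the left in the last panel while the other 8 stay near 0.

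Among the 4 ways of sorting, no member was called in TRAP or in Input, where the same test over the 4 sorts called 4.17% of all genes in TRAP and 7.42% in Input. At an unadjusted p under 0.05, 3 of the 9 passed in TRAP and 2 in Input, the DESeq2 test called none in either, and limma on the authors' log2 values called 1 in TRAP, Alox5ap. Alox5ap came nearest to a call, with group means spanning 0.995 on the log2 scale in TRAP (FDR = 2.2e-05) and 0.79 in Input (FDR = 0.0072). In TRAP it measured 277, 295, 247 and 311 CPM after autoMACS in mice 66, 67, 72 and 73, and 223, 217 and 220 CPM after autoMACS to Tyto in mice 66, 67 and 73. After the Tyto sort it measured 205, 131, 149, 127 and 144 CPM in mice 69, 822, 823, 945 and 991. After FACSAria it measured 203, 120, 119 and 129 CPM in mice 69, 945, 991 and 992.

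In TRAP the bead-sorted libraries were thus the highest, and the autoMACS to Tyto libraries lay above all Tyto and FACSAria libraries. The test took libraries of mice that were used in more than 1 sort as independent. In the 3 mice sorted both ways, Alox5ap was lower in TRAP after the second sort in 3 of 3, by -0.50 to -0.31 on the log2(CPM + 1) scale. In the same mice Ltc4s was lower in 3 of 3 (-0.87 to -0.083), and Alox5 (0.25 to 0.34) and Pla2g4a (0.22 to 0.29) were higher in 3 of 3. Mouse 69 was the highest in both FACS groups, in TRAP and in Input. In Input it measured 262 CPM after Tyto and 261 CPM after FACSAria, while the other mice there measured 134 to 160 CPM. Without mouse 69 the span was 1.21 in TRAP and 1.09 in Input, and Alox5ap was then called in both. In TRAP it was also called without mouse 66 (1.01) or mouse 72 (1.06). Ptges, at 0 to 27 counts a library, was called in Input without mouse 73 (2.28). The mice of the 2 bead sorts and the mice of Tyto and FACSAria had none in common, so mouse and sort cannot be told apart between them. All autoMACS to Tyto mice were also autoMACS mice, and Tyto and FACSAria shared 3 mice. Neutrophil markers (S100a8, S100a9, Ngp, Camp and Mmp8), which belong to a cell type that also uses Alox5ap, summed in Input to 63.6 to 212 CPM after autoMACS, 31.7 to 209 CPM after autoMACS to Tyto, 27.1 to 80.8 CPM after Tyto and 0.0994 to 34.9 CPM after FACSAria. Tyto and FACSAria gated on CD11b, CD45 and eGFP, and in autoMACS to Tyto the beads were followed by the cartridge-based sort as well. In TRAP they summed to 0.902 to 12.1 CPM after autoMACS, 0.768 to 3.15 CPM after autoMACS to Tyto, 0.122 to 0.924 CPM after Tyto and 0.135 to 0.411 CPM after FACSAria, and their part in the Alox5ap levels was not tested.

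**Figure D3:**
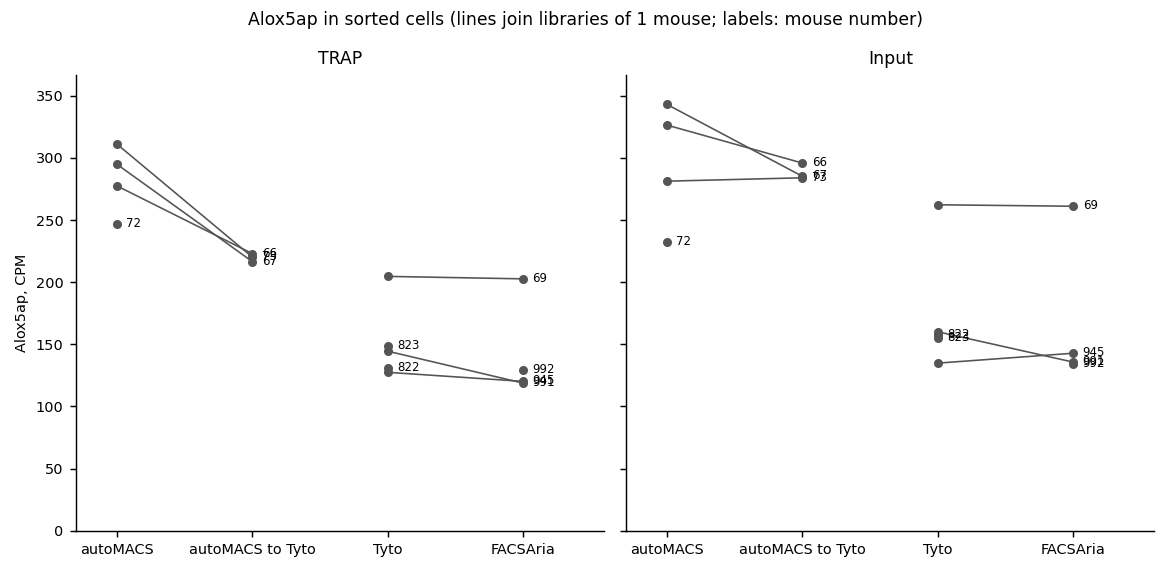
Alox5ap in CPM on the y axis in each sorted library, by sort on the x axis, for TRAP (left) and Input (right), with lines joining libraries of 1 mouse and labels giving the mouse number. Mouse 69 sits at 203 and 205 CPM in TRAP while its companions in the same sorts sit between 119 and 149 CPM, and the 3 mice sorted both ways fall from autoMACS to the second sort in TRAP.

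In whole RNA the members rose too, Ptges among them. Cell-Input was called higher than Tissue-Input for 8 members, all but Ptgs2, where 28.5% of all genes tested were called higher. Changes ran from 1.97 ± 0.42 for Ptges to 4.42 ± 0.28 for Alox5. Ptges measured 4.19, 4.06, 4.77 and 4.87 CPM in Tissue-Input and 15.7, 17.4, 18.7 and 13.6 CPM in Cell-Input. So its level rose in Input of the suspension (FDR = 2.3e-04) while its level in TRAP did not. Ptges was not called enriched in Tissue-TRAP over Tissue-Input, and whether its TRAP reads came from tagged cells was not tested. Endothelial markers had a median change of 4.68, and astrocyte markers of 2.45, in the same comparison.

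The fraction and the preparation were also tested together. The rise from Tissue to Cell was smaller in TRAP than in Input for 7 members, by -0.59 ± 0.15 (Ptgs1) to -2.64 ± 0.58 (Ptges), where 38.9% of all genes tested were called lower in this term at the same FDR. It was not called for Pla2g4a (0.18 ± 0.22, FDR = 0.48) or Ptgs2 (0.94 ± 0.72, FDR = 0.265). With DESeq2 size factors the median of all genes in this term moved by -0.32, and the share of positive terms among those called went from 39.1% to 22.0%.

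Sort-Input was called higher than Cell-Input for 7 members and lower for Ptges, where 17.1% of all genes tested were called higher and 34.7% lower. The 7 rose by 1.68 ± 0.11 (Pla2g4a) to 2.89 ± 0.14 (Hpgds), and Ptges changed by -4.97 ± 0.32. Only Ptgs2 was not called (0.45 ± 0.35, FDR = 0.24). Sort-Input against Tissue-Input called all 9, with 8 higher and Ptges lower, where 27.3% were called higher and 36.9% lower among all genes. There Alox5 changed by 7.22 ± 0.26, from 0.0975 to 0.70 CPM in Tissue-Input to 51 to 85 CPM in the 16 sorted Input libraries. The call for Ptgs2 (1.23 ± 0.37, FDR = 0.0040) was lost with DESeq2 size factors (0.94), with the DESeq2 test (0.95) and with limma on the authors' log2 values (0.65), each of which fell under the fold threshold.

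Pull-down of tagged ribosomes from tissue separated the members. Tissue-TRAP was called higher than Tissue-Input for 7 members in both tables, where 9.23% of all genes were called higher in the sort table and 8.21% in the cell-preparation table. In the sort table, enrichment was 4.33 to 4.54 for Hpgds, Tbxas1, Alox5, Alox5ap and Ltc4s, 3.28 ± 0.12 for Ptgs1 and 1.63 ± 0.17 for Pla2g4a. Pla2g4a measured 1.26 to 2.01 CPM in Tissue-Input and 3.35 to 6.74 CPM in Tissue-TRAP, so it was enriched in every mouse, with the lowest change of the 7. Ptgs2 (-0.66 ± 0.53, FDR = 0.41) and Ptges (0.07 ± 0.40, FDR = 0.93) were not called. The sign of the small Ptges difference turned with DESeq2 size factors (-0.01).

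In the unsorted suspension the enrichment was smaller than in tissue for 6 of these 7, all but Pla2g4a, by the test of both terms above, and after sorting no member was called enriched. Cell-TRAP was called higher than Cell-Input for 7 members (1.81 ± 0.13 for Pla2g4a to 2.96 ± 0.14 for Tbxas1) and lower for Ptges (-2.57 ± 0.43, FDR = 1.1e-06). Of all genes tested, 16.8% were called higher and 30.9% lower. DESeq2 size factors moved the median of all genes there by -0.41, with 21.0% instead of 35.2% of the called genes higher, and turned the uncalled Ptgs2 difference from 0.27 to -0.12. Sort-TRAP differed from Sort-Input in a call for Ptges alone, which was lower (-2.35 ± 0.39, FDR = 2.3e-06), where 18.8% of all genes were called lower. The sorted libraries held 111 Ptges counts in 16 Input libraries and 31 in 16 TRAP libraries. The Ptges call had no value with only those groups in the fit, where the gene did not pass the filter. The other 8 members lay between -0.22 (Ptgs2 ± 0.25, Alox5ap ± 0.09) and 0.42 ± 0.06 (Tbxas1).

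**Figure D4:**
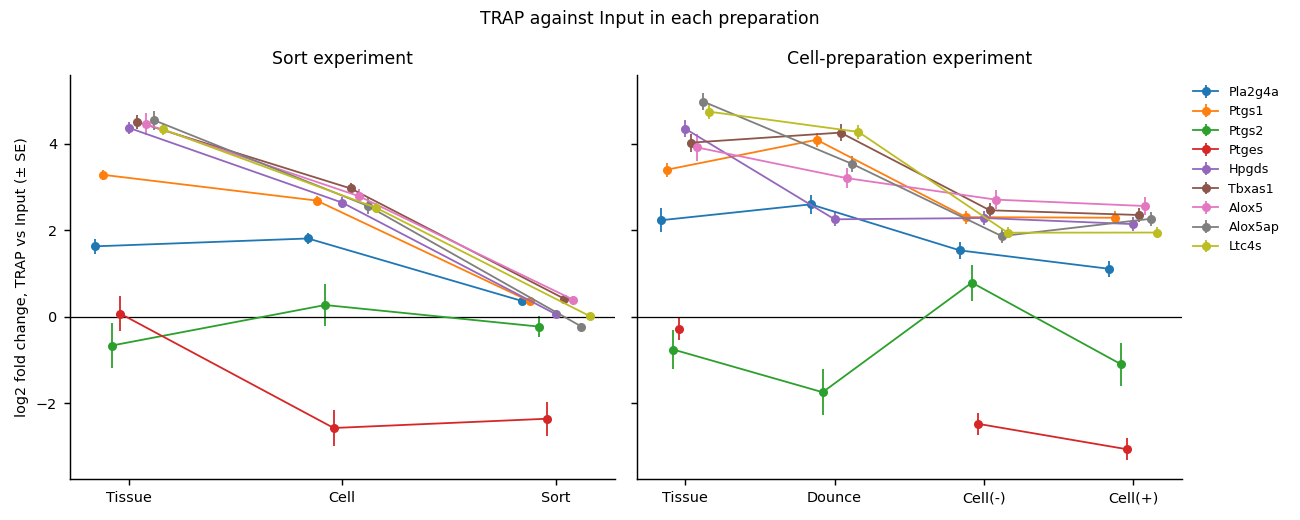
Log2 fold change of TRAP against Input on the y axis, with bars of 1 SE, for each gene in each preparation on the x axis, in the sort experiment (left) and the cell-preparation experiment (right). The genes other than Ptges and Ptgs2 lie between 1.63 and 4.54 in Tissue of the sort experiment and near 0 after sorting, while Ptges lies at -2.57 in Cell and Ptgs2 changes sign between preparations. Ptges is not drawn for Dounce.

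The cell-preparation experiment compared ways of making a suspension for the ex vivo activation they bring. In TRAP, Cell(-) was called higher than Tissue for 8 members, with Ptges the exception (-0.48 ± 0.37, FDR = 0.25), where 22.3% of all genes tested were called higher. The changes were close in kind to those of Cell-TRAP, from 1.17 ± 0.12 for Ltc4s to 3.48 ± 0.21 for Pla2g4a. The microglial markers had a median change of 2.69. Ptgs2 changed by 2.09 ± 0.50 (FDR = 0.0011). It measured 2.99 to 23.2 CPM in Cell(-)-TRAP and 1.76 to 4.29 CPM in Tissue-TRAP, so the ranges overlapped. The mice of Cell(-) and Tissue were not the same.

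The inhibitors changed 1 member, Ptgs2, which fell. In mice 156, 157, 1361 and 1362, Ptgs2 measured 8.24, 2.99, 14.2 and 23.2 CPM in Cell(-)-TRAP and 1.24, 0.577, 1.90 and 0.815 CPM in Cell(+)-TRAP. Every mouse was lower with the inhibitors, and the lowest Cell(-) value lay above the highest Cell(+) value. The change was -3.39 ± 0.54 (FDR = 0.0012), where 0.632% of all genes tested were called lower. It rested on 6 to 22 counts per library in Cell(+)-TRAP and 36 to 266 in Cell(-)-TRAP. DESeq2 gave a change of -3.42 with no adjusted p for Ptgs2. The microglial markers had a median change of 0.03 between the same libraries.

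The other 8 members showed no called change with the inhibitors. Ptgs1 measured 1021 to 1251 CPM in Cell(-)-TRAP and 1128 to 1228 CPM in Cell(+)-TRAP, a change of 0.10 ± 0.08 (FDR = 0.89). Hpgds changed by 0.02 ± 0.11, Tbxas1 by 0.08 ± 0.10, Pla2g4a by -0.12 ± 0.18, Alox5 by -0.17 ± 0.13, Ltc4s by 0.27 ± 0.11 and Ptges by -0.38 ± 0.37, with FDR values from 0.44 (Ltc4s) to 0.998 (Hpgds). Alox5ap passed the FDR without the fold. It measured 244, 288, 261 and 197 CPM in Cell(-)-TRAP and 351, 379, 353 and 271 CPM in Cell(+)-TRAP of mice 156, 157, 1361 and 1362, higher in 4 of 4 mice, by 0.46 ± 0.12 (FDR = 0.087).

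In Input the values of Ptgs2 with the inhibitors lay lower as well. Ptgs2 measured 8.19, 4.21, 6.02 and 9.64 CPM in Cell(-)-Input and 2.21, 1.32, 2.69 and 3.58 CPM in Cell(+)-Input of mice 156, 157, 1361 and 1362. It was lower in 4 of 4 mice and the ranges did not overlap. The change of -1.52 ± 0.36 missed the threshold (FDR = 0.12), so that no member was called in Input, where 0.311% of all genes were called and 1 member had an unadjusted p under 0.05. With the mouse as a block the Ptgs2 change was -1.53 and called (FDR = 0.077), and by the DESeq2 test it was -1.52 and called (FDR = 0.0078). Whether the effect differed between TRAP and Input was tested directly: the difference was -1.88 ± 0.65 for Ptgs2 (FDR = 0.52), and no member was called, where 0.214% of all genes were called. In that test 1 member had an unadjusted p under 0.05.

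**Figure D5:**
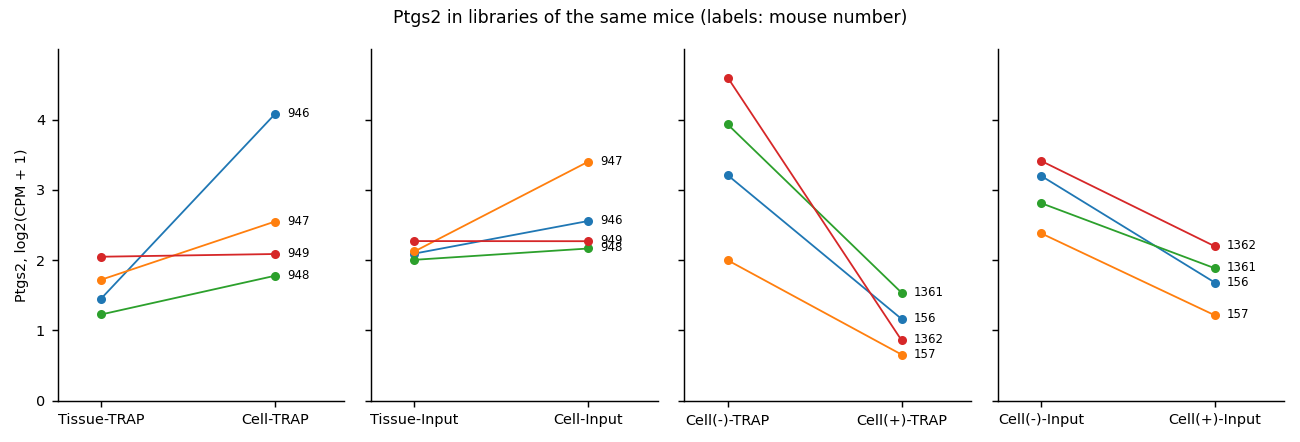
Ptgs2 as log2(CPM + 1) on the y axis, with lines joining the libraries of 1 mouse, in Tissue and Cell of the sort experiment and in Cell(-) and Cell(+) of the cell-preparation experiment, for TRAP and Input. All 8 lines between Cell(-) and Cell(+) fall, and mouse 946 alone climbs steeply between Tissue-TRAP and Cell-TRAP.

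With the inhibitors, Ptgs2 was called lower than in tissue, which came from other mice. Cell(+)-TRAP was called higher than Tissue-TRAP for 7 members and lower for Ptgs2, where 21.6% of all genes tested were called higher and 31.2% lower. Tissue-TRAP held 3.28, 2.40, 1.76 and 4.29 CPM of Ptgs2 in mice 946 to 949, overlapping the Cell(+)-TRAP values slightly, and the change was -1.30 ± 0.54 (FDR = 0.037). Without mouse 949 it was -1.06 and lost the call. Ptgs2 was not called enriched in Tissue-TRAP over Tissue-Input, and whether its Tissue-TRAP reads came from tagged cells was not tested. Ptges changed by -0.85 ± 0.37 (FDR = 0.048), short of the fold, and was called without mouse 157 (-1.01). In Input, Cell(+) against Tissue called all 9 members, with 8 higher and Ptgs2 lower (-1.16 ± 0.36, FDR = 0.0074), where 25.5% of all genes were called higher and 20.2% lower. Without mouse 157 the Ptgs2 change in Input was -0.96, under the fold threshold. Cell(-)-Input was called higher than Tissue-Input for 8 members, where 25.6% of all genes were called higher, and Ptgs2 was the one not called (0.35 ± 0.34, FDR = 0.36).

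TRAP levels of Ptgs2 and Ptges were lower in the cold mechanical suspension than in the warm enzymatic suspension. Dounce-TRAP was called lower than Cell(-)-TRAP for those 2 genes, where 8.02% of all genes tested were called lower. Ptgs2 measured 1.95, 1.26, 1.55 and 2.47 CPM in Dounce-TRAP of mice 179 to 182, on 4 to 8 counts a library, all below the lowest Cell(-)-TRAP value of 2.99 CPM. Its change was -2.74 ± 0.57 (FDR = 5.8e-04). Ptges had 0 to 2.5 expected counts in the Dounce-TRAP libraries, under the limit of 3 counts, and 29 to 65.8 counts in Cell(-)-TRAP (FDR = 3.8e-05). The other 7 were each lower by less than the fold threshold, from -0.46 ± 0.08 for Ptgs1 to -0.69 ± 0.13 for Alox5. Endothelial markers had a median change of -4.67 in this comparison, and neuron markers of 3.70. The paper reports the lowest RNA integrity for Dounce-Input. It also reports reads lying more toward the 3′ end of genes in Dounce and Tissue libraries than in enzymatic suspensions. Dounce and Cell(-) came from different mice as well, and the part of these differences here and below was not tested.

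Against Tissue-TRAP, Dounce-TRAP was called higher for 5 members and lower for Ptges, where 23.2% of all genes were called higher and 27.1% lower. The 5 were Pla2g4a (2.84 ± 0.21), Ptgs1 (2.50 ± 0.09), Alox5 (2.15 ± 0.14), Tbxas1 (1.99 ± 0.11) and Hpgds (1.73 ± 0.11). Alox5ap (0.88 ± 0.13) and Ltc4s (0.71 ± 0.12) passed the FDR and not the fold. Ptgs2 was not called, with a change of -0.66 ± 0.59 (FDR = 0.33) and a 95% interval of -1.82 to 0.50.

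In Dounce-Input the members parted. Against Cell(-)-Input, 6 were called lower, from -1.36 ± 0.21 for Pla2g4a to -2.45 ± 0.17 for Ltc4s, where 28.1% of all genes tested were called lower. Hpgds was not called, with a change of -0.09 ± 0.18 (FDR = 0.65). Its levels were 65.2, 69.96, 52 and 66.3 CPM in Dounce-Input and 71.4 to 104 CPM in Cell(-)-Input. These levels, which are scaled over Input and TRAP libraries together, do not overlap and lie lower in Dounce-Input, while the fit, scaled among Input libraries alone, put the difference near 0, so the direction for Hpgds depends on the scaling. The same holds for Ptgs2, with mean levels of 5.94 CPM in Dounce-Input and 7.02 CPM in Cell(-)-Input and a fitted change above 0. Alox5 had a change of -0.84 ± 0.32 (FDR = 0.023) without passing the fold, and was called without mouse 179 (-1.02). Its mean levels on the joint scale were 4.87 ± 1.72 CPM in Dounce-Input and 11.04 ± 1.10 CPM in Cell(-)-Input (SD, n = 4), more than the fold threshold apart. Ptgs2 did not pass (0.12 ± 0.34, FDR = 0.74), and its Dounce-Input values of 4.54, 10.0, 4.37 and 4.82 CPM fell within those of Cell(-)-Input apart from mouse 180. The microglial markers had a median change of -1.61. Neutrophil markers summed to 181 to 1197 CPM in Dounce-Input and 16.3 to 82.8 CPM in Cell(-)-Input, and mast cell markers to 64.5 to 72.0 CPM and 14.7 to 29.3 CPM. Kit, one of the mast cell markers, is also used by neurons. The part of these cells in the Alox5 and Hpgds levels was not tested. The sorted TRAP libraries are of another experiment, preparation and fraction and do not bear on Dounce-Input. In them the mast cell markers summed to 0 to 0.648 CPM, and Hpgds stood at 442 to 581 CPM.

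Dounce-Input was called higher than Tissue-Input for 7 members, all but Ptgs2 and Ptges, where 28.7% of all genes were called higher. Changes ran from 1.33 ± 0.20 for Ltc4s to 3.97 ± 0.22 for Hpgds.

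In each suspension of this experiment TRAP separated the members as in the sort experiment. Cell(-)-TRAP was called higher than Cell(-)-Input for 7 members and lower for Ptges, where 10.6% of all genes were called higher and 36.7% lower. Cell(+)-TRAP was called higher than Cell(+)-Input for the same 7 and lower for Ptges and Ptgs2, where 9.71% were called higher and 35.8% lower. Ptgs2 was the marginal one, at -1.10 ± 0.49 (FDR = 0.049), a call lost without mouse 1362 (-0.72), with DESeq2 size factors (-0.97), by the DESeq2 test (-0.98) and with only those groups in the fit (-0.80). Dounce-TRAP was called higher than Dounce-Input for 7 and lower for Ptges and Ptgs2 (-1.74 ± 0.53, FDR = 0.0046), where 20.8% were called higher and 26.7% lower. Ptges changed by -2.47 ± 0.25 in Cell(-) and -3.06 ± 0.26 in Cell(+). In Cell(-) alone Ptgs2 had a positive value, 0.79 ± 0.42 (FDR = 0.091), short of the fold, and was called higher without mouse 156 (1.02) or with only those groups in the fit (1.12).

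Levels were also divided by the length of all annotated exons of a gene together, and spanned a wide range in sorted cells. That length can exceed the length of the main transcript, so the order of genes depends on it. By CPM alone, Hpgds (525.5) and Tbxas1 (283) stood above Ltc4s (180) and Alox5ap (151) on average in Tyto-TRAP. Per kilobase of exon, Ptgs1 stood at 337 ± 27 CPM (SD, n = 5) in Tyto-TRAP, Ltc4s at 177 ± 16, Alox5ap at 107 ± 22, Hpgds at 81.8 ± 7.8, Tbxas1 at 31.1 ± 5.1, Alox5 at 23.2 ± 2.1, Pla2g4a at 13.5 ± 0.36, Ptgs2 at 1.82 ± 1.2 and Ptges at 0.0365 ± 0.019. Ptgs1 thus stood highest of the 9 per length in these libraries and Ptges lowest, on 1 to 4 counts a library. In Cell-TRAP the order was the same, with Ltc4s (167 ± 8.6) and Alox5ap (165 ± 12) not apart beyond their spread. In Tissue-TRAP of the sort experiment the order began with Ltc4s (65 ± 8.7), Alox5ap (47.2 ± 3.4) and Ptgs1 (28.3 ± 4.5), and Ptges (1.2 ± 0.22) stood above Pla2g4a (0.807 ± 0.22) and Ptgs2 (0.465 ± 0.17).

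Across TRAP groups of the sort experiment, Ptgs1, Hpgds, Tbxas1 and Pla2g4a ran in the same broad order: the 4 sorts highest, each overlapping the next in rank, then Cell, then Tissue, each apart from the next. For Pla2g4a, autoMACS (67.1 to 76.1 CPM) lay below both Tyto (82.5 to 88.4 CPM) and autoMACS to Tyto (78.5 to 85.7 CPM) without overlap. Alox5 had the same order with autoMACS overlapping Cell. Ptgs2 in the sort experiment ran FACSAria (9.08 ± 5.24 CPM), Tyto (8.33 ± 5.36), autoMACS to Tyto (6.75 ± 0.75), Cell (6.60 ± 6.27) and autoMACS (6.09 ± 1.45), all overlapping their neighbours, with Tissue (2.13 ± 0.78) below autoMACS without overlap. In the cell-preparation experiment it ran Cell(-) (12.2 ± 8.66 CPM), Tissue (2.93 ± 1.10), Dounce (1.81 ± 0.52) and Cell(+) (1.13 ± 0.58), each overlapping its neighbour.

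Other genes of eicosanoid metabolism and signalling did not move as a block. Of a list of 87, 59 were tested in TRAP. In Cell-TRAP against Tissue-TRAP, 24 were called higher and 15 lower, with a median change of 0.44, where 25.1% of all genes tested were called higher and 29.3% lower. Of 11 receptors tested, 9 were called higher and 1 lower, and of 16 synthases, 2 higher and 7 lower. Cysltr1, a receptor for the cysteinyl leukotrienes, changed by 3.55 ± 0.12, from 4.21 to 7.02 CPM to 54.1 to 71 CPM. Ggt5, a gamma-glutamyl transferase that turns leukotriene C4 into D4, changed by 3.18 ± 0.10, and Cmklr1, a chemerin receptor that also binds resolvin E1, by 2.81 ± 0.10. Faah, which breaks down anandamide, was called lower by -5.04 ± 0.37, and the epidermal-type lipoxygenases Alox12b (2.19 to 3.04 CPM in Tissue-TRAP, 0 to 0.13 in Cell-TRAP) and Alox8 (4.25 to 6.0 and 0 to 0.294 CPM) were called lower on 0 to 4 counts a library in Cell-TRAP.

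In Cell(-)-TRAP against Tissue-TRAP 20 of the 59 were called higher and 16 lower, where 22.3% and 30.8% of all genes were. Cysltr1 (3.33 ± 0.18) and Ggt5 (3.15 ± 0.15) again led, followed by Ptger4, a prostaglandin E2 receptor (2.54 ± 0.36). Faah (-5.24 ± 0.27), Alox12b (0 counts in every Cell(-)-TRAP library) and the phospholipase Pla2g4e (0 to 5 counts) were lower. With the inhibitors 1 of the 59 was called, lower, where 0.632% of all genes were. This was Ptger4, which changed by -1.55 ± 0.34 (FDR = 0.022) and measured 6.68 to 15.7 CPM in Cell(-)-TRAP and 2.16 to 4.16 CPM in Cell(+)-TRAP, with no overlap. So Ptgs2 and Ptger4, the inducible cyclooxygenase and a receptor for one of its products, were the 2 genes called among the 9 members and the 59. Sort-TRAP against Cell-TRAP called 19 of the 59 lower and none higher, where 23.6% of all genes tested were called lower and 0.836% higher. Those with the greatest fall were Gpr17 (2.96 to 4.19 CPM in Cell-TRAP, 0 to 6 counts after sorting), an oligodendrocyte precursor receptor, Pla2g5 (0.49 to 1.30 CPM, 0 to 2 counts) and the thromboxane receptor Tbxa2r (0.740 to 1.47 CPM, 0 to 5 counts).

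The genes whose TRAP pattern was most like each member were found over the 24 TRAP libraries of the sort experiment and the 16 of the cell-preparation experiment, ranked by the lower of both Pearson correlations of log2(CPM + 1) among 14426 genes. The points share libraries, mice and the contrast of Tissue with the other groups, and no p is given. Ptgs2 was nearest to Nr4a1 (r = 0.87 and 0.92) and Cxcl2 (0.86 and 0.87), an immediate early nuclear receptor and a chemokine. Ptges was nearest to Sod3 (0.96 and 0.96) and Gstm1 (0.98 and 0.95). For the other members the lower r was 0.91 or above. Ptgs1 was nearest to Abcc3 and Lpcat2, Hpgds to Lcp1 and Emr1, and Tbxas1 to Fcrls and Slc2a5. Alox5 was nearest to Lcp1 and Cyfip1, Alox5ap to Arpc2 and Ostf1, Ltc4s to Gpsm3 and AF251705, and Pla2g4a to Tubgcp5 and Alg8.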

How the data were processed

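RNA of 80 libraries (poly(A)-selected, directional) from mouse brain was analysed from the gene tables of 2 experiments, 48 and 32 libraries. The authors aligned reads to mm10 and removed duplicates in Strand NGS. They deposited expected counts per gene, which need not be whole, and log2 values, which the authors normalised with DESeq2. The expected counts were rounded here and fitted with edgeR 4.0.16 (TMM scaling, quasi-likelihood test, R 4.3.3) separately for Input, TRAP and both together. A gene was tested where all libraries of some group held over 5 counts. P-values were adjusted by Benjamini-Hochberg over all genes of a fit, and calls needed an FDR under 0.1 and a fold above 2 (interactions, the FDR alone). Printed levels are CPM scaled over all libraries of a table together, so they can differ in scale from a fit within 1 fraction. Alternatives were DESeq2 size factors, the DESeq2 1.42.0 test, limma 3.58.1 on the log2 values, other filters, only the groups compared, blocks and leaving out each mouse. The fitting steps were run on simulated counts for Cell-TRAP against Tissue-TRAP, with independent libraries and few changed genes. The real comparisons differ, with many genes changed and mice that recur, so the simulation does not check their calls.

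The members and lists were chosen with earlier results of these data known. All 9 members are named, with the 3 pathway genes of greatest called change in each direction in 4 TRAP comparisons and the 2 genes most like each member. Mice are the replicates. Tissue and Cell, and Cell(-) and Cell(+), came from the same mice by their numbers in the labels. Deviations of same-mouse libraries from their group means correlated at 0.05 to 0.16 (Cell and Tissue, TRAP), -0.07 to 0.02 (Input), 0.09 to 0.49 (Cell(+) and Cell(-), TRAP) and -0.06 to 0.11 (Input). Marker lists of 13 cell types were summed as CPM. From the microglial list 1 gene is not reported here and was left out of its values. Promoter windows came from RefSeq (GRCm38.p6), and gene coordinates from GENCODE vM21.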

Additional observations from a re-analysis of the deposited data

Results flagged for a closer look

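In 12 of 162 groups of 4 or 5 libraries, a single library stood far from the rest of its group by Dixon's criterion, where chance gives about 5 percent of groups. Alox5ap of mouse 69 accounted for 4 of them, at 262 CPM in Tyto-Input, 261 CPM in FACSAria-Input, 205 CPM in Tyto-TRAP and 203 CPM in FACSAria-TRAP, each above its group. Mouse 1362 stood apart in Cell(+) for Ptgs1, at 296 CPM in Input (high) and 1128 CPM in TRAP (low), and for Tbxas1, at 88.7 CPM in Input and 340.2 CPM in TRAP (both high). Ptgs2 was high in mouse 992 after FACSAria, at 13.5 CPM in Input and 16.9 CPM in TRAP, and in mouse 180 in Dounce-Input, at 10.03 CPM. Alox5 of mouse 949 was low in Cell-Input, at 6.15 CPM.

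The rise from Tissue to Cell differed between TRAP and Input for 7 members, tested as an interaction (log2, TRAP minus Input): -2.64 for Ptges, -0.59 for Ptgs1, -1.98 for Alox5ap, -1.53 for Tbxas1, -1.73 for Hpgds, -1.67 for Alox5 and -1.81 for Ltc4s. Most genes differed in this term: 10119 of the 15825 tested were called in either direction. Called lower, like these 7, were 38.9% of all genes tested, and the median of all genes was -0.29.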

How the results depend on the processing

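Of 3262 values of members under the alternatives, 3203 kept their direction and side of the threshold, 30 changed sign, 16 gained a call and 13 lost one. The number of members called across the 4 sorts in TRAP was 1 with limma instead of 0, and 0 to 1 when each mouse was left out, in TRAP and in Input. For Sort-TRAP against Cell-TRAP it was 1 to 2 when each mouse was left out. For Cell(+)-Input against Cell(-)-Input it was 1 with the DESeq2 test and 1 with the mouse as a replicate block (Ptgs2, -1.53), and the block changed no other count of members called. Over all genes, Cell(+)-TRAP against Cell(-)-TRAP had 94 calls, 116 with only those groups in the fit and 150 with the block added to that fit. For Sort-TRAP against Sort-Input it was 0 with only the groups compared, where Ptges did not pass the filter.

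No value that changed sign was called, with either sign. Ptges in Tissue-TRAP against Tissue-Input was -0.0079 with DESeq2 size factors, -0.0079 with the DESeq2 test and -0.062 with limma. Ptgs2 in Cell-TRAP against Cell-Input was -0.12, -0.12 and -0.51 with the same settings. The interaction of Cell and Tissue with fraction was -0.15 for Pla2g4a with DESeq2 size factors, and that of the inhibitors was -0.0055 for Ltc4s with them and -0.0079 with the homogenate as a replicate block. Leaving out each mouse gave Ptgs2 in Sort-TRAP against Cell-TRAP -0.13 to 1.15, in Dounce-Input against Cell(-)-Input -0.26 to 0.32 and in Cell-TRAP against Cell-Input -0.95 to 0.55. In Cell(+)-Input against Cell(-)-Input it gave Ptgs1 -0.019 to 0.25, Alox5 -0.17 to 0.044 and Alox5ap -0.044 to 0.16. It gave Hpgds in Dounce-Input against Cell(-)-Input -0.16 to 0.020, Ptges in Tissue-TRAP against Tissue-Input -0.058 to 0.095 and Ltc4s in Sort-TRAP against Sort-Input -0.020 to 0.075. In the first interaction Ptgs2 ran from -0.30 to 1.32 and Pla2g4a from -0.31 to 0.15, and in the second Ptgs1 from -0.12 to 0.087, Alox5 from -0.30 to 0.053, Ltc4s from -0.12 to 0.074 and Tbxas1 from -0.21 to 0.048. The cause was not tested. DESeq2 size factors moved the median of all genes by -0.35 in Sort-TRAP against Tissue-TRAP, -0.21 and -0.30 in Sort-Input against Cell-Input and Tissue-Input, -0.23 in Dounce-TRAP against Dounce-Input, and 0.12 and 0.13 in Cell(+) and Cell(-) TRAP against Input.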
